A study of Mus musculus with 9 samples.

Results

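The genes described here are Il6, Il11, Lif, Csf1, Csf2, Csf3, Tnf, Nfkbia, Tnfaip3 and Socs3, which encode cytokines of the IL-6 family, colony-stimulating factors, tumour necrosis factor and feedback inhibitors of the pathways these signals use. The 10 genes were chosen by name out of 20076 genes that have a value in at least 1 of the 2 tables of the study. They were matched by the tables' symbol or, where the tables give no symbol, by the gene identifier. Of the 10 genes, 8 had a value in the JICD1 comparison and 9 in the NICD1 comparison.

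The cells were cultured murine astrocytes of genotype Ink4a-/-, a genotype that the control cells carry too. Controls received pcDNA puro, an empty puromycin-resistance vector. The second group received pcDNA HA-JICD1 puro, for the HA-tagged intracellular fragment of the Notch ligand Jagged1, and the third received pcDNA NICD puro, for the intracellular fragment of Notch1, a receptor whose freed fragment enters the nucleus and works with the DNA-binding protein RBPJ. RNA was sequenced from 3 libraries per group, 9 in all. Whether the transfected cells were a clone or a pool, and how long after transfection they were harvested, is not stated in the sources used here.

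Each of the authors' deposited tables gives, per gene, the log2 ratio of a transfected group over control and a score between 0 and 1. No library value was used here, so no ratio has a replicate error, an n or a p-value, depth is unknown, and above and below state a direction only. A gene with a score of 0.8 or more is called scored, a threshold that is not a significance level. The scored gene with the smallest absolute log2 ratio stood at 0.999 in the JICD1 table and at 0.976 in the NICD1 table, so a gene that differed by clearly less than 2-fold was never scored. Jag1 itself stood at a log2 ratio of -1.39 with JICD1 (score 0.759) in the authors' deposited table. The construct carries the intracellular fragment alone, and whether its reads count toward Jag1 is not stated in the sources used here. The ratio therefore does not check the label, and that group is called the libraries labelled JICD1. With NICD1 the authors' deposited table put Jag1 at 1.36 (score 0.819). Notch1 stood at 1.77 with NICD1 (score 0.815) and at 1.33 with JICD1 (score 0.735) in the authors' deposited tables, above control in both. Whether reads of the NICD construct count toward Notch1 is not stated in the sources used here either. The Notch1 ratios therefore do not check the NICD1 label.

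As background, cytokines of the IL-6 family signal through the shared receptor subunit gp130, encoded by Il6st, to JAK kinases and the transcription factor STAT3. STAT3 induces Socs3, whose product blocks the receptor-bound kinases. TNF and interleukin-1 activate NF-kB, which induces cytokine genes together with its own brakes: IkB-alpha (Nfkbia), which holds NF-kB in the cytoplasm, and the ubiquitin-editing enzyme A20 (Tnfaip3). In brain, reactive astrocytes are a known source of IL-6, LIF and colony-stimulating factors.

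Most of the members with a JICD1 value stood below control, and most of those with a NICD1 value stood above it. Il11, Lif, Nfkbia and Tnfaip3 did both, as did Socs3 with a NICD1 ratio of only 0.01. From the authors' deposited ratios, 7 of the 8 genes with a JICD1 value lay below 0, with a median log2 ratio of -0.72 against 0.05 over all genes. In these bulk samples fewer cells of a type and less RNA per cell cannot be told apart. With NICD1, 7 of 9 lay above 0, with a median of 0.87 against -0.02 over all genes. These include Il6 and Tnf, which had no JICD1 value and whose control was inferred at a floor value, described below. A gene with its control at that value can only lie above 0. Of 1105 genes with a NICD1 value only, 1098 lay above 0, so Il6 and Tnf add nothing to the count as evidence of direction. Il11 was scored, above control, with NICD1, and no member was scored in the JICD1 table. Over all genes, 1.64% were scored higher and 0.97% scored lower in the NICD1 table, and in the JICD1 table the shares were 1.07% higher and 1.74% lower. At 2-fold or more, 3 of 9 members were higher and 1 lower with NICD1, where 16.6% and 12.1% of all genes were; 1 of 8 was higher and 2 were lower in the libraries labelled JICD1, where 14.5% and 14.4% were. The counts at 2-fold are thus small, and they include genes close to the detection limit, described below. Without genes inferred at the floor, 1 member was 2-fold higher with NICD1. Csf2, the 1 member higher with JICD1, had a value in that comparison only.

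**Figure D1:**
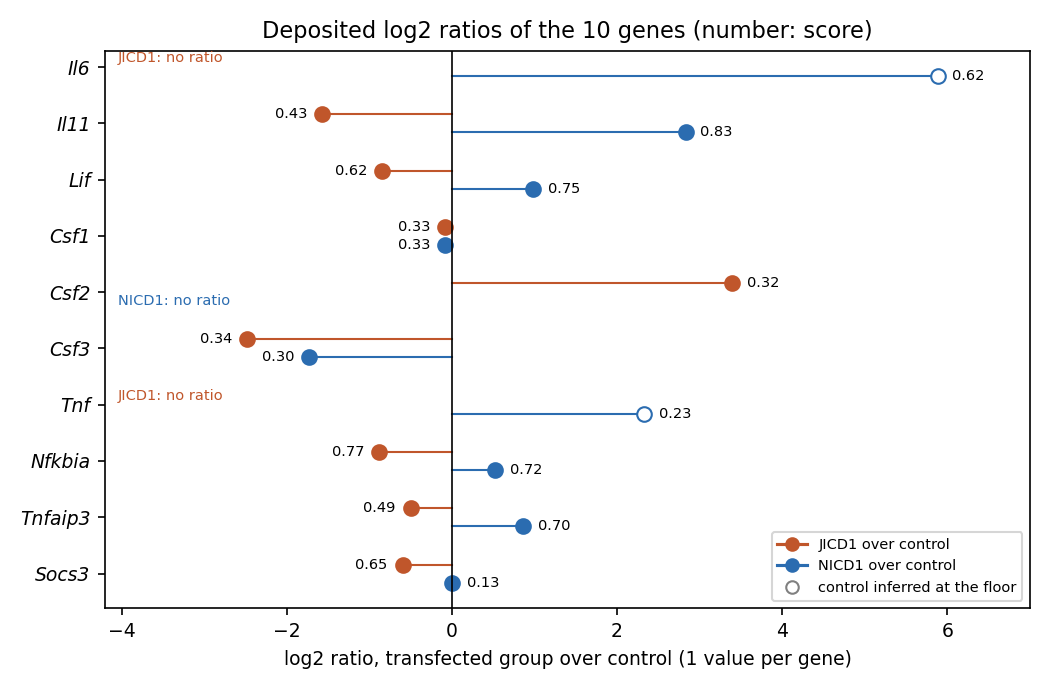
Log2 ratio over control (x axis) of each of the 10 genes (y axis) for JICD1 (orange) and NICD1 (blue), 1 deposited value each with no error bar; the number beside a point is its score. Il11, Lif, Nfkbia and Tnfaip3 lie below 0 with JICD1 and above 0 with NICD1, and Il6 and Tnf have a NICD1 value only, with open points where the control was inferred at the floor.

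The region before the start of the genes that stood on opposite sides of control is shown for Il11, Lif, Nfkbia and Tnfaip3, with Il6, the member with the largest ratio. The sequences are from RefSeq, build GRCm38.p6, and each is the 250 bases before a start site, 5′ to 3′ on the strand of the gene. Capitals mark matches to any of the motifs searched on both strands: the kappaB consensus bound by NF-kB, the AP-1 motif TGANTCA, the RBPJ motif GTGGGAA, the STAT motif TTCNNNGAA, the C/EBP motif TTNNGNAA and the TATA motif TATAAA. Il11 and Tnfaip3 have 2 start sites each; for Tnfaip3 the upstream one is printed, and the downstream window, chr10:19011964-19012213 (minus), is given by its matches alone. The windows are chr5:30012864-30013113 (plus strand) for Il6, chr7:4782858-4783107 (minus) for the upstream and chr7:4778142-4778391 (minus) for the downstream start of Il11, chr11:4257318-4257567 (plus) for Lif, chr12:55492648-55492897 (minus) for Nfkbia and chr10:19015411-19015660 (minus) for Tnfaip3.
Il6: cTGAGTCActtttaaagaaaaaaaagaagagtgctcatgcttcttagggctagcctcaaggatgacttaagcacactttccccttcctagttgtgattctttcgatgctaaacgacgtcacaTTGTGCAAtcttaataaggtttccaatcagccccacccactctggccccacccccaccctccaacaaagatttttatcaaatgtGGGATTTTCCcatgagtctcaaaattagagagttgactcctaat
Il11 upstream: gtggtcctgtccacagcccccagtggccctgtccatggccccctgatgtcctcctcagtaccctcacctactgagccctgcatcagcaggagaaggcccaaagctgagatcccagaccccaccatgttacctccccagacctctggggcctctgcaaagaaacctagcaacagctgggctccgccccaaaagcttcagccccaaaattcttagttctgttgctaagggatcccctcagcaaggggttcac
Il11 downstream: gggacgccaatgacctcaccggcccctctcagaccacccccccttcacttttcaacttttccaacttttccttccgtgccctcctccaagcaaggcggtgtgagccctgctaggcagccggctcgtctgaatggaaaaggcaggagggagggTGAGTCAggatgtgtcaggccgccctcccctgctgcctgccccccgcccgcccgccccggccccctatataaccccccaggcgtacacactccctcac
Lif: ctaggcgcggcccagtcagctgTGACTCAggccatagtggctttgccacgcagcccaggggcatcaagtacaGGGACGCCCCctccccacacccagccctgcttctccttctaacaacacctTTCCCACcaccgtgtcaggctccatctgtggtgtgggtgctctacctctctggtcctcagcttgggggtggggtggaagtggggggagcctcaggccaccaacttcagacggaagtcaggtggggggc
Nfkbia: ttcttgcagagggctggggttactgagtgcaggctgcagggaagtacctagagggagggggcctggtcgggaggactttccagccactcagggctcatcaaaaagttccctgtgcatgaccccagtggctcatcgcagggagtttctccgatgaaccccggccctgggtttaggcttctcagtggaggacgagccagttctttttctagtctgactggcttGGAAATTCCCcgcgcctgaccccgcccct
Tnfaip3: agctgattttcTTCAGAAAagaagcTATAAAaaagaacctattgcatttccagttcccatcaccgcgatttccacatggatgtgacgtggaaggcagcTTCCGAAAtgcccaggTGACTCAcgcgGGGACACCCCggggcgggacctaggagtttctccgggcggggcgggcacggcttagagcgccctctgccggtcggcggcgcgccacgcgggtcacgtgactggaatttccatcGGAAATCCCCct

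Promoter entries were found for 9 of the 10 members, in 11 windows of 300 bases that run 50 bases past the start. A kappaB match lay in 5 of these 11 windows (Il6, Lif, Csf1, Nfkbia and Tnfaip3), and 8.46% of all 32851 promoter windows hold a match. In Il6 the match GGGATTTTCC begins 44 bases before the start, and in Nfkbia GGAAATTCCC, read on the opposite strand, begins 29 bases before it. An AP-1 match lay in 4 windows (Il6, Il11, Lif and Tnfaip3), against 7.81% of all windows. In Il11 the AP-1 match begins 98 bases before the downstream start, and the upstream window holds no match to any of the 6 motifs. In Tnfaip3 the 2 kappaB matches and the AP-1 match lie before the upstream start, and the window of the downstream start holds 0 of either and 1 C/EBP match. An RBPJ match lay in 2 windows (Lif and Csf2), against 6.38%. The STAT motif lay in 1 window, that of Socs3, where TTCTTAGAA begins 154 bases before the start; 8.30% of all windows hold that motif. C/EBP matches lay in 5 windows against 40.7%, and TATA matches in 3 against 13.6%. No matches of different motifs overlapped in these windows. The members were chosen by name and include genes known to be induced by NF-kB. The kappaB count beside the share of all windows therefore does not test for enrichment. A match is a run of letters, and binding was not measured here.

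Il11 encodes interleukin 11, a member of the IL-6 family that acts on stromal and haematopoietic cells. Its NICD1 log2 ratio in the authors' deposited table was 2.83, a value 7.11-fold above control, with a score of 0.828. In the libraries labelled JICD1 it stood at -1.57 in the authors' deposited table, 2.98-fold below control, with a score of 0.425. Il11 was thus on opposite sides of control with the 2 constructs, and only the NICD1 value was scored. The deposited row of Il11 (ENSMUSG00000004371) is described by a transcript at chr7:4773233-4782857 on GRCm38, minus strand, which begins next to the upstream window printed above. Whether the value counts that transcript alone is not stated in the sources used here.

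Il6 encodes interleukin 6, the inflammatory cytokine that names the family. The gene (NCBI gene 16193) had no JICD1 value, and the authors' deposited table gave it a NICD1 log2 ratio of 5.88 and a score of 0.623. Only 0.612% of the genes of that table had a higher ratio. The ratio and score of Il6 lay within 0.002 of the curve formed by 694 genes whose negative ratios were equal in the tables, which were taken to have both transfected groups at a common floor value. The control group of Il6 was therefore inferred to be at that value, which leaves the fold undefined. Among 1433 genes of the NICD1 table whose control was inferred at the floor, 58 had a higher ratio than Il6.

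Lif encodes leukaemia inhibitory factor, which signals through gp130 and the receptor Lifr and is known to drive astrocyte differentiation. In the authors' deposited tables Lif (NCBI gene 16878) stood at -0.85 with JICD1, 1.80-fold below control, and at 0.98 with NICD1, 1.97-fold above control. The scores were 0.624 and 0.746. Among the 300 genes nearest to it in absolute log2 ratio, 74.3% had a lower score with JICD1 and 89.0% with NICD1. The highest score among those 300 genes was 0.777 with JICD1 and 0.806 with NICD1, so the JICD1 ratio of Lif is of a size at which none of its neighbours was scored.

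The NF-kB brakes lay on the same sides as Lif. Nfkbia (NCBI gene 18035) stood at -0.88 with JICD1, 1.84-fold below control, and at 0.52 with NICD1, 1.44-fold above control, in the authors' deposited tables. Its scores of 0.775 and 0.723 were close to the highest among the 300 genes of nearest ratio, which were 0.779 and 0.727. Tnfaip3 (NCBI gene 21929) stood at -0.50 with JICD1, 1.41-fold below control, and at 0.87 with NICD1, 1.82-fold above control, in the authors' deposited tables, with scores of 0.488 and 0.698. No gene among the 300 nearest to Tnfaip3 in ratio reached 0.8 in either table, the highest being 0.713 and 0.785. The row of Tnfaip3 is described by a transcript at chr10:19011516-19014582 on GRCm38, minus strand, which begins downstream of the window printed above.

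Socs3 encodes the STAT3-induced inhibitor of gp130 signalling. It stood at -0.60 with JICD1, 1.51-fold below control, and at 0.01 with NICD1 in the authors' deposited tables, with scores of 0.645 and 0.130. Socs3 therefore lay below control in the libraries labelled JICD1 and level with it in ratio with NICD1. The row of Socs3 is described by a processed transcript that spans 518 bases of the genome, at chr11:117968934-117969451 on GRCm38, minus strand, and not by a coding transcript.

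The colony-stimulating factors did not share a pattern. Csf1, the growth factor of macrophages and microglia, stood at -0.08 with both constructs in the authors' deposited tables, with scores of 0.330 and 0.331. These scores exceeded those of 97.3% and 92.7% of the 300 genes nearest in absolute ratio. Csf3, the granulocyte factor G-CSF, stood at -2.48 with JICD1 and -1.73 with NICD1 in the authors' deposited tables, 5.58-fold and 3.32-fold below control, with scores of 0.338 and 0.302. Csf3 was thus the member with the lowest ratio in each table, at scores far under 0.8. Csf2, the granulocyte and macrophage factor GM-CSF, had a JICD1 value only, which the authors' deposited table lists as 3.39, scored 0.319. That score lay 0.0035 above the interpolated floor curve, outside the tolerance of 0.002 and inside one of 0.005, and between the scores of the neighbouring curve points, 0.310 and 0.320. Csf2 was 1 of 789 genes with a JICD1 value only. Of these, 779 lay above 0 and 97.1% were within 0.005 of the curve. Most genes of this kind thus had a control near the floor. No fold is given for Csf2, whose control was not called at the floor by the tolerance of 0.002.

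Tnf, the inflammatory cytokine tumour necrosis factor, had no JICD1 value. Its NICD1 log2 ratio in the authors' deposited table was 2.32 with a score of 0.229, on the floor curve, so its control, too, was inferred to lie there and its fold is left out. Of the 1433 genes with such a control 889 had a higher ratio. Tnf and Il6 hence both had a value with NICD1 alone, at different heights above the floor. Genes listed in a single table were mostly of this kind: of 1105 genes with a NICD1 value only, 1098 lay above 0 and 92.7% were within 0.002 of the curve.

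**Figure D2:**
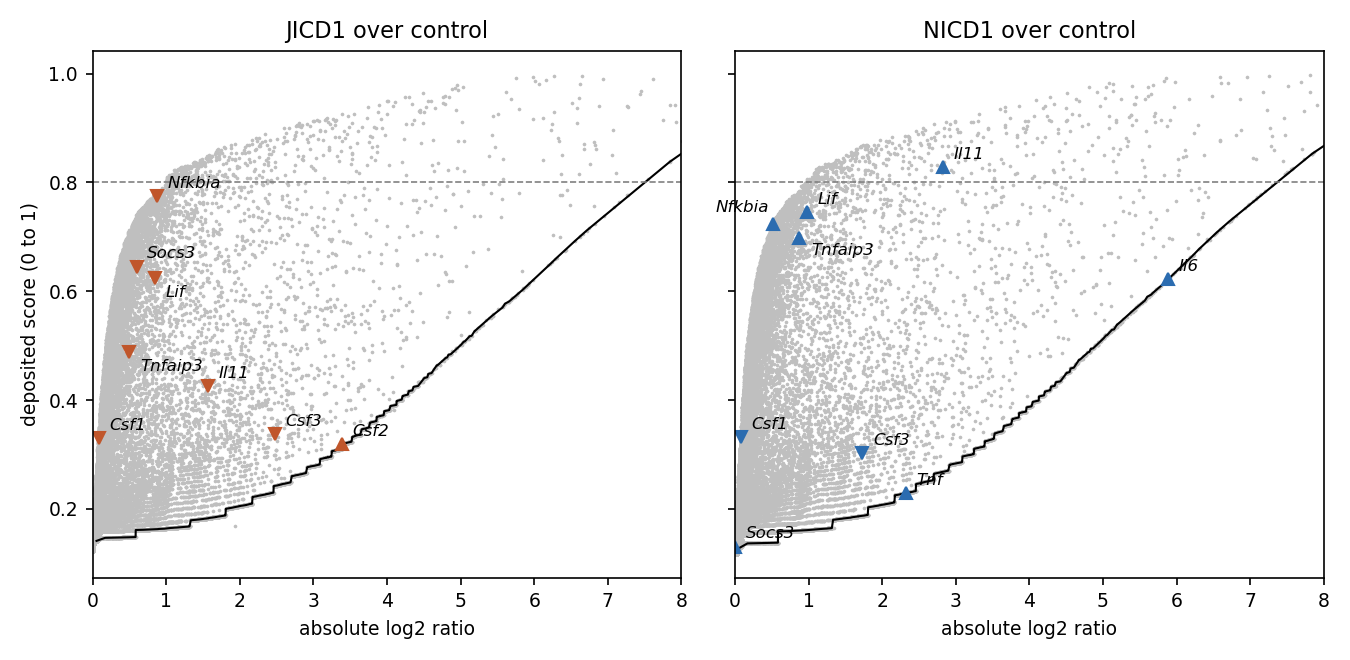
Deposited score (y axis) against absolute log2 ratio (x axis, shown up to 8) for all genes (grey) in the JICD1 (left) and NICD1 (right) comparison; triangles mark members above (up) or below (down) control, the black line is the floor curve and the dashed line a score of 0.8. Il6 and Tnf lie on the curve, Nfkbia lies at the upper edge in both panels, and Il11 with NICD1 is the member above the dashed line.

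Set against each other, 6 of the 7 members with both values stood lower in the libraries labelled JICD1 than with NICD1. The difference, the JICD1 log2 ratio minus the NICD1 log2 ratio, removes the shared control and has no score and no test. Its median over the 7 members was -1.37, against 0.04 over all 18182 genes with both values. Il11 had a difference of -4.40, 21.2-fold lower with JICD1 than with NICD1, and 1.61% of all genes had a lower one. Lif differed by -1.83 (3.55-fold lower), Nfkbia by -1.40 (2.64-fold), Tnfaip3 by -1.37 (2.58-fold), Csf3 by -0.75 (1.68-fold) and Socs3 by -0.60 (1.52-fold). Of the 7 members, 4 differed by -1 or less and 0 by 1 or more, where 13.6% and 10.6% of all genes did. The exception was Csf1, whose difference was 0.0012 and turned to -0.06 when each table's median was subtracted.

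**Figure D3:**
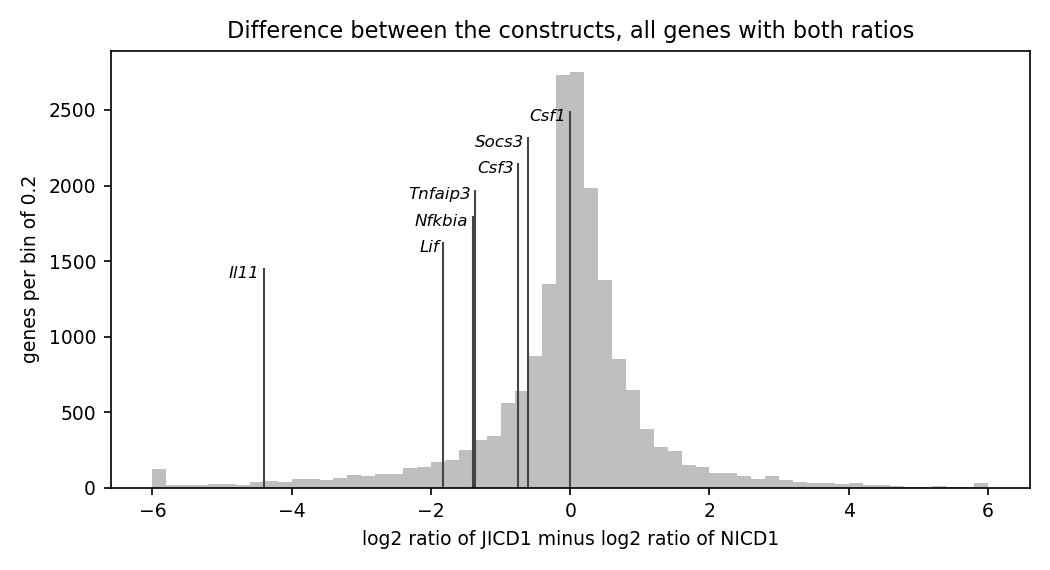
Number of genes (y axis) by the JICD1 minus NICD1 difference in log2 ratio (x axis, bins of 0.2; values beyond 6 in either direction are counted in the end bins); lines mark the 7 members with both values. Il11 lies farthest left at -4.40, Lif, Nfkbia and Tnfaip3 lie between -1.83 and -1.37, and Csf1 lies at 0.

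By a rule of nearest pattern, the genes closest to Il11 over both log2 ratios were sought among 491 genes with both values that were scored in the NICD1 table. Among the 3 nearest were Praf2, at -1.35 with JICD1 and 2.74 with NICD1 in the authors' deposited tables (Euclidean distance 0.24), and Cotl1, at -1.78 and 2.99 in the authors' deposited tables (distance 0.26). The likeness rests on 2 values per gene that share their control.

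The receptors and the other ligands of the IL-6 family were compared as a list. Of its 15 genes, 11 had a JICD1 value, 5 above and 6 below 0 with none scored, and 12 had a NICD1 value, 10 above and 2 below 0 with 2 scored higher, Il11 among them. The 2 members below 0 with NICD1 were receptor genes: Il6ra, the IL-6 binding chain, at -1.16 (score 0.772) and Il6st at -0.68 (score 0.753) in the authors' deposited tables. With JICD1 the authors' deposited tables put Il6ra at 0.03 and Il6st at -0.05. Lifr stood at 1.46 and Osmr, the oncostatin M receptor, at 1.04 with NICD1, with scores of 0.220 and 0.431, and at 0.15 and -1.27 with JICD1, in the authors' deposited tables. The list medians were 0.84 with NICD1 and -0.05 with JICD1, beside -0.02 and 0.05 over all genes.

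Few genes downstream of these receptors were scored, and few were over all genes. With JICD1 1.07% of all genes were scored higher and 1.74% lower, and with NICD1 1.64% and 0.97%. These shares apply beside the counts of every pathway list. None of the 19 JAK, STAT and SOCS genes was scored in either table, and Stat3 stood at 0.85 with NICD1 (score 0.712) and at 0.15 with JICD1 in the authors' deposited tables. Of the STAT3-induced list, 2 of 15 were scored lower with JICD1. These were Junb, an AP-1 subunit gene, at -1.56 and Il4ra, the interleukin 4 receptor chain, at -1.41 in the authors' deposited tables. With NICD1, 1 of 16 was scored, the metalloproteinase inhibitor gene Timp1 at 1.65 (3.14-fold above control) in the authors' deposited table. The list medians were -0.35 with JICD1 and 0.35 with NICD1.

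None of the other colony-stimulating factor genes or their receptors was scored. Of 10 listed genes, 9 had a JICD1 and 8 a NICD1 value, with medians of -0.08 and -0.04. Csf1r, the receptor of CSF-1, stood at -0.12 with JICD1 and 3.17 with NICD1 in the authors' deposited tables, with scores of 0.146 and 0.459. Csf2rb stood at -0.82 and -0.00094, and Csf3r at 0.42 and 0.24, with JICD1 and NICD1 in the authors' deposited tables.

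Among TNF superfamily and receptor genes, Tnfrsf1b, which encodes TNF receptor 2, was the scored gene in each table. It stood at -1.68 with JICD1 (3.21-fold below control, score 0.855) and -1.14 with NICD1 (2.21-fold, score 0.823) in the authors' deposited tables. Tnfrsf1a, which encodes TNF receptor 1, stood at 0.14 and 0.12 in the authors' deposited tables. Of the 12 NF-kB subunit and IKK genes, 1 was scored, with JICD1: Map3k14, the kinase NIK of the non-canonical pathway, at -1.89 (3.71-fold below control) in the authors' deposited table. The NF-kB subunit list had medians of 0.01 with JICD1 and 0.20 with NICD1.

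The wider list of NF-kB feedback inhibitors, which holds Nfkbia and Tnfaip3, had no scored gene in either table. Of 15 genes with a JICD1 value, 4 lay above and 11 below 0, with a median of -0.54, and of 17 with a NICD1 value, 11 lay above and 6 below 0, with a median of 0.30. Other genes of this list, named after their values were seen, include Tnip1, which encodes the A20 partner ABIN-1, at -1.04 with JICD1 (score 0.781) and 0.46 with NICD1 (score 0.668) in the authors' deposited tables. Bcl3, an atypical IkB gene, stood at -1.74 (score 0.756) and 0.82 (score 0.695) in the authors' deposited tables. Nfkbid, another atypical IkB gene, lay below 0 with each construct, at -2.05 and -1.38 in the authors' deposited tables. Of the 13 other genes of the list with both values, 6 lay, like Nfkbia and Tnfaip3, below 0 with JICD1 and above 0 with NICD1. The share of all genes on those sides is not given here, so the count does not measure a shared pattern.

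The upstream genes held the largest scored ratios. Il1rn, which encodes the interleukin-1 receptor antagonist, stood at -10.23 with JICD1 and -3.06 with NICD1 in the authors' deposited tables, and it was scored in each; whether its JICD1 group lay at the floor is undecided, as the ratio is beyond the curve's end at 9.45. With NICD1 the alarmin gene Il33 (4.93) and the interleukin-1 co-receptor gene Il1rap (1.48) were scored higher in the authors' deposited table. Il1a had a NICD1 value only, and Il1b had a value in neither table. In the list headed cytokine mRNA decay factors 1 of 10 genes was scored. It was Dusp1, at 1.18 with NICD1 in the authors' deposited table, which encodes a MAP kinase phosphatase and not itself a decay factor. Zfp36, which encodes the decay factor tristetraprolin, stood at -0.56 with JICD1 and 0.41 with NICD1 in the authors' deposited tables.

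**Figure D4:**
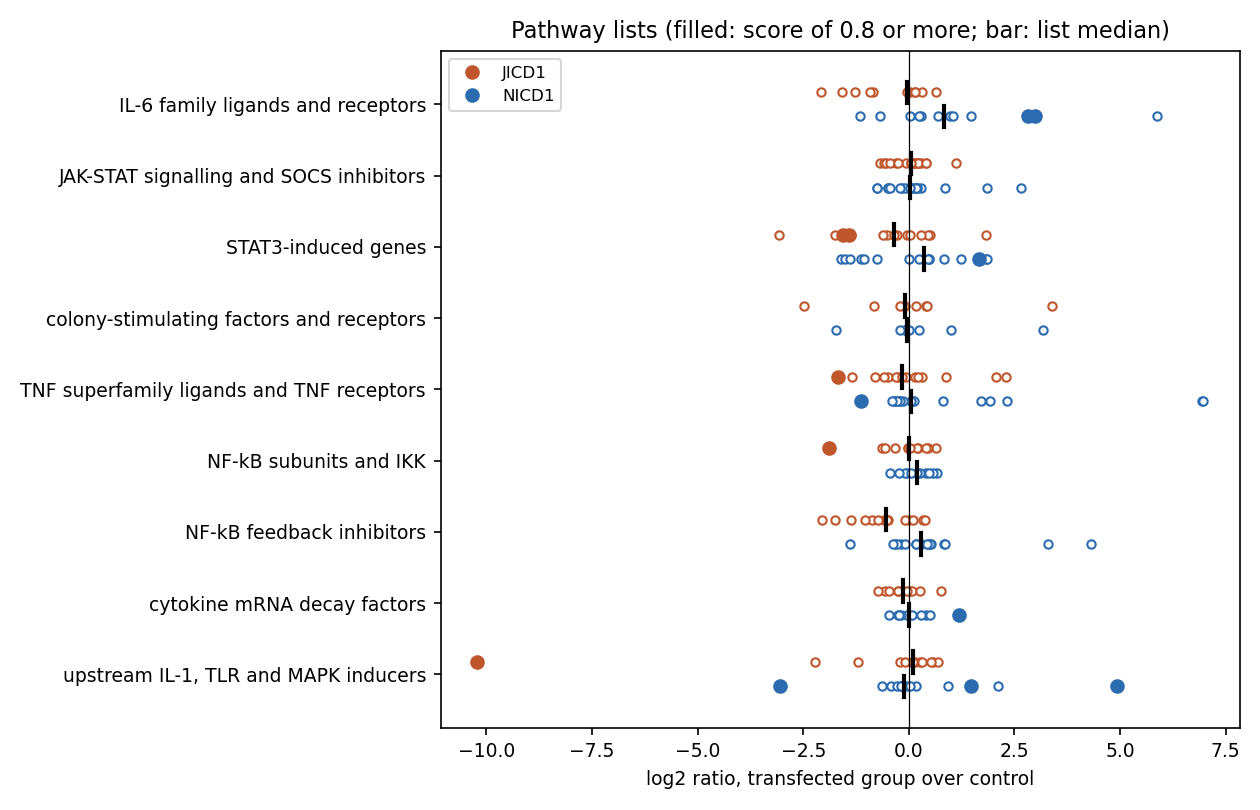
Log2 ratio over control (x axis) of every gene with a value in the 9 pathway lists (y axis), JICD1 in orange and NICD1 in blue; filled points have a score of 0.8 or more and black bars are list medians. In the IL-6 family the NICD1 median of 0.84 lies above the JICD1 median of -0.05, and Il1rn is the point at -10.23.

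Across the 9 lists together, 118 of 131 genes had a JICD1 value, with 0 scored higher and 5 lower. With NICD1, 124 had a value, with 6 scored higher and 2 lower. Over all genes, 1.07% were scored higher and 1.74% lower with JICD1, and 1.64% higher and 0.97% lower with NICD1. The medians were -0.06 and 0.10.

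Markers of other cells that make or answer these cytokines had values as follows. Of 14 microglia and macrophage markers, 11 had a JICD1 value, 3 above and 8 below 0 (median -0.61), and 10 had a NICD1 value, 9 above and 1 below 0 (median 0.76). Tyrobp, C1qa and C1qb had a value in neither table, and the tables hold no levels, so no summed level can be given. All 6 fibroblast and pericyte markers with a JICD1 value lay below 0 (median -2.27), and 3 of 7 lay above 0 with NICD1 (median -1.23). Of these markers 4 were scored lower with JICD1, and 1 was scored higher and 1 lower with NICD1. The only scored markers of the other lists were Tmem119 (microglia), lower with JICD1, and Sox9 (astrocyte), lower with NICD1. Over all genes, 1.74% were scored lower with JICD1, and 1.64% higher and 0.97% lower with NICD1. Of 8 endothelial markers 6 had a value in each table, 3 above and 3 below 0 in each, with medians of -0.43 with JICD1 and 0.84 with NICD1. Of 10 astrocyte markers 9 had a value in each table, 6 below 0 with JICD1 (median -0.72) and 7 below 0 with NICD1 (median -0.69). Gfap stood at -1.36 and -1.52 in the authors' deposited tables with scores of 0.242 and 0.261, and Aqp4 had a value in neither. Of 9 lymphocyte and neutrophil markers 3 had a value in each table, with medians of 1.20 with JICD1 and 1.98 with NICD1. S100a8 stood at 4.93 and 7.15, Mpo at 1.20 and 1.98, and Cd79a at -0.93 and -1.93 in the authors' deposited tables. The control was inferred at the floor for Mpo in each table and for S100a8 with NICD1. Cd3e and Ms4a1 had no value in either table. The part of these markers in the ratios of the 10 genes was not tested.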

How the data were processed

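RNA was sequenced from 9 libraries, 3 per group, grouped by their titles. Bowtie2, BWA and mm9 appear in the submitters' processing notes without versions or roles. Per the file headers, the authors deposited 1 log2 ratio and 1 score, which they call Probability, for each gene and construct; how reads were counted and libraries combined is not stated there. The tables held 0 unused numeric columns. Deposited rows without a symbol made up 61.1% and 61.3% of genes. The members' rows of this kind describe a transcript on GRCm38, per the file contents.

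Rows were read with Python 3.11.15 and pandas 2.3.3. Of the members, 3 were matched by symbol and 5 by gene identifier for JICD1, and 5 and 4 for NICD1. A group was inferred at the floor where the absolute log2 ratio was 1 or more and the score lay within 0.002 (0.01 above a log2 ratio of 6) of the curve of 694 genes with equal negative ratios (tolerance 1e-06). The tables mark no floor.

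The members, lists, thresholds and motifs were chosen with earlier results of these data known. Named genes were the members, the receptors, Jag1, Notch1, up to 4 scored genes per list and table, and the 3 nearest to a scored member. Some genes covered by it are not reported here. Alternatives varied the score and fold thresholds, the centring, the matching and the floor.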

Additional observations from a re-analysis of the deposited data

How the results depend on the processing

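No paired analysis was possible because only a ratio between groups is deposited for each gene; for the same reason no library was left out, and neither DESeq2 size factors nor a count filter could be run. At a score of 0.7, 1 member was counted lower with JICD1 (Nfkbia) and 3 higher with NICD1 (Il11, Lif and Nfkbia); at 0.9, 0 were counted higher with NICD1. At those thresholds the genes of the 9 lists counted 2 higher (at 0.7) and 12 or 1 lower with JICD1, and 16 or 1 higher and 7 or 0 lower with NICD1. With the symbol column alone, 0 members were scored higher with NICD1, 0 were 2-fold higher and 1 was 2-fold lower with JICD1, and the lists counted 2 lower with JICD1 and 2 higher and 0 lower with NICD1, since fewer genes were matched. At 1.5-fold, 5 members lay lower with JICD1 and 5 lay higher with NICD1; at 4-fold, 1 was lower with JICD1 and 0 lower with NICD1. Without genes inferred at the floor, 1 member (Il11) was 2-fold higher with NICD1. Subtracting the median of all genes gave member medians of -0.77 with JICD1, 0.88 with NICD1 and -1.43 for their difference, and of 24 member values 1 changed sign, the Csf1 difference, to -0.060. With a floor tolerance of 0.001 instead of 0.002, 1 member value (Tnf) instead of 2 lay on the curve. Depth is unknown, so how well single ratios are determined cannot be stated.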

Other observations

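A ligand and a decoy receptor of the TNF superfamily, named after their values were seen, stood beside Il6 among the genes with a control inferred at the floor. In the NICD1 comparison of the authors' deposited tables Tnfsf11, which encodes RANKL, stood at a log2 ratio of 6.93 (score 0.754), and Tnfrsf11b, which encodes its decoy receptor osteoprotegerin, at 6.98 (score 0.759). Tnfsf11 had no JICD1 value, and Tnfrsf11b stood at 2.07 with JICD1 in the authors' deposited table.

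Of 10 pairs of a member and its neighbour in the RefSeq gene order of GRCm38 with all values present, 4 had the neighbour on the same side of control as the member in both tables. The share over all neighbouring genes is not given here, so the count does not measure a shared pattern. Hormad2, next to Lif, stood at -1.40 with JICD1, its transfected group inferred at the floor, and at 1.98 with NICD1 in the authors' deposited tables. Psma6, next to Nfkbia, stood at -0.16 and 0.26 in the authors' deposited tables. Perp, next to Tnfaip3, stood at -1.22 with JICD1 and -4.28 with NICD1 in the authors' deposited tables, scored in each, where Tnfaip3 stood at -0.50 and 0.87. P4ha2, next to Csf2, stood at 0.57 and 1.20 in the authors' deposited tables, while Csf2 had no NICD1 value. Osm, the IL-6 family gene next to Lif, and Il3, next to Csf2, had a value in neither table. Beside Tnf, Ltb had a NICD1 value only, 1.71 with its control inferred at the floor, and Lta stood at -0.26 with JICD1 and -0.33 with NICD1 in the authors' deposited tables.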
